A study of Homo sapiens with 6 samples.

Results

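The series holds 6 Illumina BeadChip arrays of total RNA from SNU761, an established hepatocellular carcinoma cell line, and the 2 arrays numbered 3 in the labels were set beside the 4 arrays numbered 1 and 2. They were chosen by that number, because earlier results of these data had shown them to stand apart, and they make up 2 of the 6 arrays. One of the arrays numbered 3 holds RNA of cells given the kinase inhibitor sorafenib for 24 h, at a dose the labels write as 3 mM (a unit that is uncertain), and the other holds RNA of control cells given the solvent DMSO for 24 h. The 4 arrays numbered 1 and 2 are 2 of sorafenib-treated and 2 of DMSO-treated cells under the same labels. No mutation or transgene is named for either group, all 6 arrays carry the label SNU761 (the design text names further lines, not analysed here), and the labels do not say whether arrays of a group came from separate cultures. The treatment was balanced over the numbers, so that each difference below was adjusted for it, and its own effect is not described here.

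A hepatocellular carcinoma line keeps part of the hepatocyte program. Hepatocytes secrete most plasma proteins, among them albumin, the apolipoproteins that carry lipid, the clotting factors and the complement components, under transcription factors of the HNF and C/EBP families. Fetal liver and liver tumours also make oncofetal proteins such as alpha-fetoprotein and glypican 3, whereas epithelial cells that move toward a mesenchymal state make matrix, contractile and adhesion proteins.

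The unit throughout is the normalized log2 signal of a gene symbol, so that 1 unit is 2-fold, and a difference is the level on the arrays numbered 3 minus that on the arrays numbered 1 and 2, adjusted for treatment. A symbol was tested if its deposited detection p-value, which for a single probe is the chance that background alone gives as high a signal, was under 0.05 on at least 2 arrays, which 16870 of 34690 symbols met. It was counted as higher or lower if it was at least 4-fold apart and both arrays numbered 3 lay beyond all 4 others. By that rule 907 symbols (5.38% of those tested) were higher and 989 (5.86%) were lower, and these shares are what the counts of each gene group below are read against. The choice of arrays used these values, so that every difference is a description, and no statistical test of it is given. A single-probe symbol at background in 1 group passed the filter through the other group, and could be counted only in that group's direction. For a symbol detected on no array of one group the fold is a lower bound, taken against the lowest level of a detected symbol, and is written as "at least". For 7443 symbols the p-values are not those of a single probe, and how they were combined is not stated, so that such a symbol can be bright and still have a p-value of 0.05 or more. All 460 untested symbols with a mean, on either group of arrays, at least 4-fold above the highest such lowest level of any array were of this kind, and so were all 26 counted symbols whose mean lay above that level in a group where no array detected them. Undetected levels above the lowest detected level were left as they were, so that for these 26 the fold may be a plain one and not a bound. A pair of values on arrays 3 is that of the sorafenib array and that of the control array, and a mean ± SD is over the 4 arrays numbered 1 and 2 (n = 4). That SD includes the differences between treatments and between arrays 1 and 2, which were not removed, and is not a spread of replicates alone.

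The 6 arrays fell into 2 kinds of profile. Across tested symbols the 2 arrays numbered 3 correlated with each other at r = 0.979, and each correlated with the 4 others at only 0.791 to 0.829, while the 4 others correlated at 0.938 to 0.986 among themselves. Arrays of 1 number were alike in every case, at 0.986 for arrays 1 and 0.970 for arrays 2, against 0.938 to 0.963 between arrays 1 and arrays 2. The arrays numbered 3 correlated at 0.809 to 0.829 with arrays 2 and at 0.791 to 0.801 with arrays 1. The absolute difference of the arrays numbered 3 from the rest had a median of 0.59 log2 units and a 90th percentile of 2.12, against 0.35 and 1.02 between arrays 2 and arrays 1. The difference correlated at r = 0.93 across tested symbols between sorafenib and control arrays, which share no array; symbols are not independent replicates. For 69% of tested symbols the difference was under 2-fold. Its median over all tested symbols was 0.00024, a value that quantile normalization holds near 0, and -0.12 with median scaling. Among symbols whose detection p-values were those of a single probe, 420 were detected on both arrays numbered 3 and on none of the others, and 685 were detected on all 4 others and on neither array numbered 3. The arrays numbered 3 were close to arrays 2 in background: it averaged 139 and 139 units of signal on them, against 137 and 137 on arrays 2 and 112 and 117 on arrays 1 (sorafenib and control). The number of detected symbols was 13195 and 14056 on arrays 3, 13412 and 14059 on arrays 2, and 15227 and 15164 on arrays 1. Whatever was handled along with the number 3 in both treatments cannot be told apart from it. Without background correction the counts were 496 higher and 488 lower, and with background estimated from all symbols 309 and 241. In bulk RNA, fewer cells of a type and less RNA per cell cannot be told apart either.

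**Figure D1:**
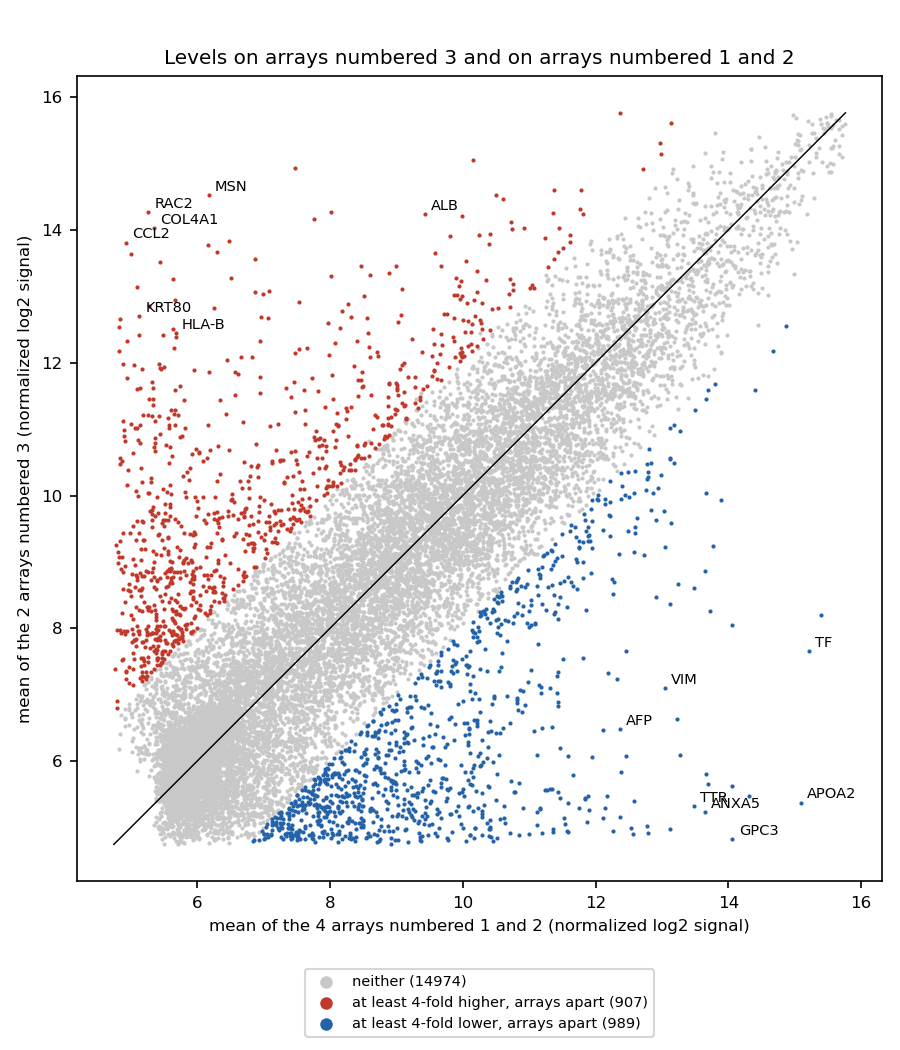
Each point is 1 of the 16870 tested symbols, with its mean on the 4 arrays numbered 1 and 2 on the horizontal axis and its mean on the 2 arrays numbered 3 on the vertical axis, both as normalized log2 signal. The 907 higher symbols (red) and 989 lower symbols (blue) reach the edges of the plot, so that APOA2, GPC3 and TF near the lower right lie more than 7 log2 units under the line of equal levels, and RAC2, CCL2 and COL4A1 at the upper left lie more than 8 above it.

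**Figure D2:**
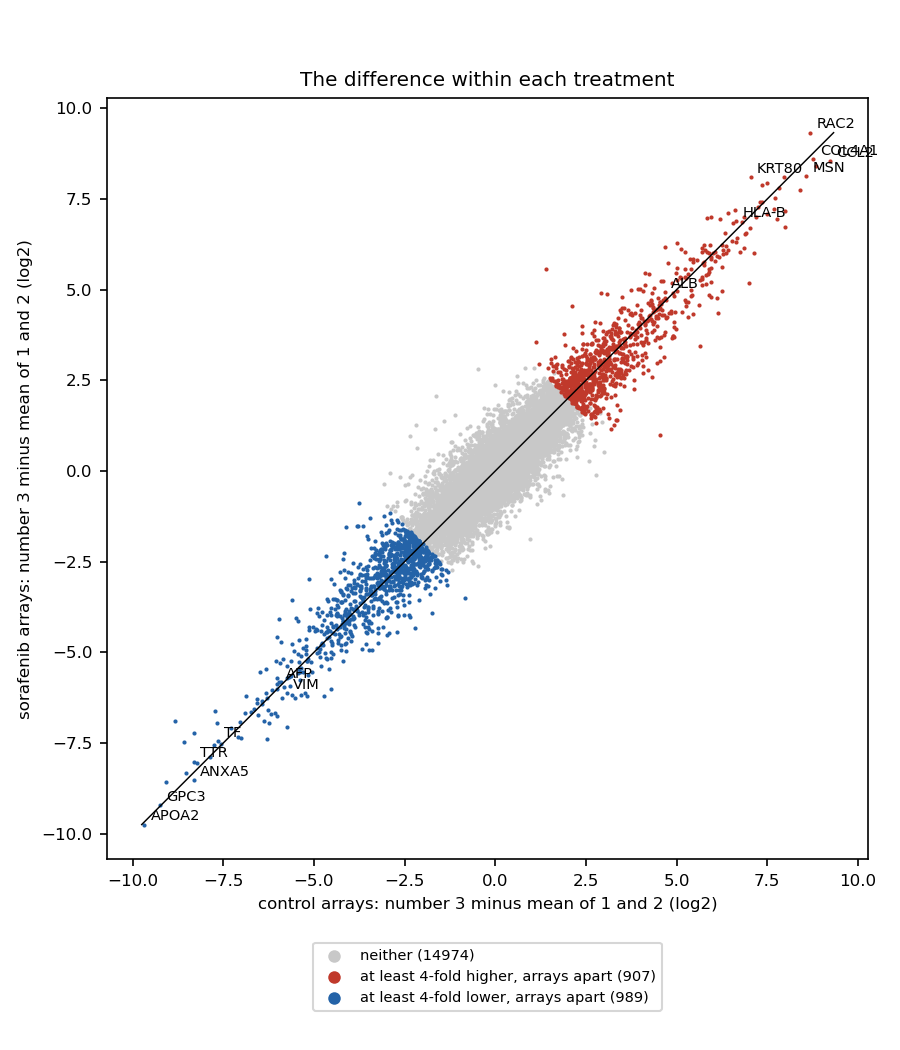
Each point is 1 tested symbol, with the level on array 3 minus the mean of arrays 1 and 2 among control arrays on the horizontal axis and among sorafenib arrays on the vertical axis, in log2 units. The points follow the line of equal differences (r = 0.93). Counted symbols share a sign in both treatments by the rule that chose them.

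The secreted liver proteins divided into lower and higher sets. Apolipoproteins were lower where they differed: 0 of 15 tested members were higher and 11 lower, with a median difference of -4.86. Their median level on arrays 3 was 5.89, near background, where a member can come out lower but not higher. The lack of higher members is therefore not a result about this list. APOA2, a protein of high-density lipoprotein, had the largest difference of all lower symbols, with levels of 5.31 on the sorafenib array and 5.44 on the control array numbered 3, against 15.67 and 14.44 on sorafenib arrays 1 and 2 and 15.69 and 14.56 on control arrays 1 and 2. It was detected on none of the arrays numbered 3 and was at least 557-fold lower there. APOA1, the main protein of high-density lipoprotein, was at least 272-fold lower, with 5.59 and 5.67 on arrays 3, against 14.06 ± 0.46 on arrays 1 and 2. MTTP, the transfer protein that loads lipid onto apolipoprotein B, gave 5.61 and 6.55 on arrays 3, against 12.46 ± 0.36 on arrays 1 and 2, and APOM, which carries sphingosine-1-phosphate, gave 5.35 and 5.59 on arrays 3, against 12.17 ± 0.99 on arrays 1 and 2. APOB itself, the scaffold of very-low-density lipoprotein, was still detected on arrays 3 at 8.23 and 8.99, 29.1-fold lower than on arrays 1 and 2. APOE, a ligand of the LDL receptor, gave 8.23 and 8.28 on arrays 3, against 13.72 ± 0.34 on arrays 1 and 2, and its chromosomal neighbours APOC1 and APOC2 were 21.6-fold lower and at least 17.3-fold lower. LIPC, hepatic lipase, missed the 4-fold limit with a difference of -1.84, and APOA4, APOA5 and LCAT, all low on every array, differed by -0.065, -0.69 and -1.07.

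Carrier and other plasma proteins were divided, with more of them lower than higher, and the counted clotting factors were all lower. Of the plasma proteins, 4 of 24 tested members were higher and 10 lower (median -0.76). TTR, the carrier of thyroxine and retinol-binding protein, had levels of 5.21 on the sorafenib array and 5.44 on the control array numbered 3, against 13.04 and 13.38 on sorafenib arrays 1 and 2 and 13.82 and 13.68 on control arrays 1 and 2, and was at least 183-fold lower. TF, the iron carrier transferrin, stayed above background at 7.74 and 7.58 on arrays 3, against 15.21 ± 0.34 on arrays 1 and 2, and was 187-fold lower. AHSG, fetuin A, was at least 48.7-fold lower, A2M, a broad protease inhibitor, 29.1-fold lower, VTN, vitronectin, 12.3-fold lower, and RBP4, the retinol carrier, 9.35-fold lower. Of coagulation and fibrinolysis genes, 0 of 18 tested members were higher and 9 lower. Their median level on arrays 3 was 5.92, also near background, so that the lack of higher members is not a result about the list. SERPINC1 (antithrombin), SERPINF2 (antiplasmin) and KNG1 (kininogen) were not detected on arrays 3 and were at least 29.4-fold lower, at least 41.8-fold lower and at least 35.5-fold lower. F5 and F12 were at least 21.3-fold lower and 16.4-fold lower. The fibrinogen chains, by contrast, did not reach the limit: FGA differed by -1.88, FGB by -0.074 and FGG by -0.80, and PROS1, protein S, by 0.32.

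ALB, albumin, was on the opposite side. Its level was 14.05 on the sorafenib array and 14.42 on the control array numbered 3, against 9.27 and 8.97 on sorafenib arrays 1 and 2 and 9.62 and 9.88 on control arrays 1 and 2, and the arrays numbered 3 were 27.9-fold higher without overlap. GC, the vitamin D-binding protein encoded beside albumin in the same gene cluster, gave 12.41 and 12.83 on arrays 3, against 9.03 ± 0.25 on arrays 1 and 2, and was 12-fold higher. AFP, the fetal albumin of that cluster, was lower, with 6.14 on the sorafenib array and 6.83 on the control array numbered 3, against 11.94 and 11.97 on sorafenib arrays 1 and 2 and 12.44 and 13.11 on control arrays 1 and 2. The same cluster thus held ALB and GC, higher by 4.80 and 3.59 log2 units, and AFP, with a difference of -5.89. The 250 bases before the start of ALB (chr4:73404037-73404286, plus strand, GRCh38.p14) and of AFP (chr4:73435971-73436220, plus strand) are shown because these neighbours differed in opposite directions. The sequences are RefSeq's, and capitals mark a TATA box (TATAAA, gene strand).
ALB: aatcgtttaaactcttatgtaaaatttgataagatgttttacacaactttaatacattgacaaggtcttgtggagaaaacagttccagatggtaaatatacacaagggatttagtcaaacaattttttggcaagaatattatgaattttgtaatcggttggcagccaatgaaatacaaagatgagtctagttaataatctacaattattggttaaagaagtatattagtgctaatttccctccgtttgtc
AFP: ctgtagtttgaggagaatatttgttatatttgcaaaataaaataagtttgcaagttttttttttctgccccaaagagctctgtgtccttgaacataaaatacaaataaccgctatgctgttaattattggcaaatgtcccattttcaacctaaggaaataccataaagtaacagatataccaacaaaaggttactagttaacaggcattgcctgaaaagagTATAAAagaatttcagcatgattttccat
AFP held the TATA box, and ALB did not in exactly these letters. Within promoter windows of 300 bases, the TATA box was found in 7.89% of higher, 6.25% of lower and 4.26% of all tested genes with a window. Over all 27305 windows, of tested and untested genes, the share was 7.71%. A match is a run of letters and does not show a site in use.

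SERPINA3, the acute-phase protease inhibitor antichymotrypsin, was higher with albumin, at 13.19 and 12.80 on arrays 3, against 8.52 ± 0.58 on arrays 1 and 2, and so was CP, the copper-carrying ferroxidase ceruloplasmin, at 9.79 and 10.62 on arrays 3, against 7.31 ± 1.13 on arrays 1 and 2. The inhibitor SERPINA1 (antitrypsin) differed by only 0.56, AGT (angiotensinogen) by 0.83, and the acute-phase proteins ORM1 and HP by 0.67 and -0.59. Complement leaned upward: 6 of 17 tested members were higher and 2 lower (median 0.71, though -0.090 over the members detected on at least 3 arrays). Of the classical pathway proteases, C1R gave 9.20 and 9.26 on arrays 3, against 5.71 ± 0.15 on arrays 1 and 2, and C1S gave 11.52 and 12.11 on arrays 3, against 8.04 ± 0.11 on arrays 1 and 2. C3, the central component, was 7.85-fold higher. It has p-values of several probes, and averaged 8.10 on arrays 1 and 2 although detected on none of them, so that its fold need not be a lower bound. CFB, the alternative-pathway protease, was 7.44-fold higher, and C6, of the membrane attack complex, 9.36-fold higher. SERPING1, which inhibits C1R and C1S, and C8A differed the other way, 5.96-fold lower and 12.4-fold lower.

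**Figure D3:**
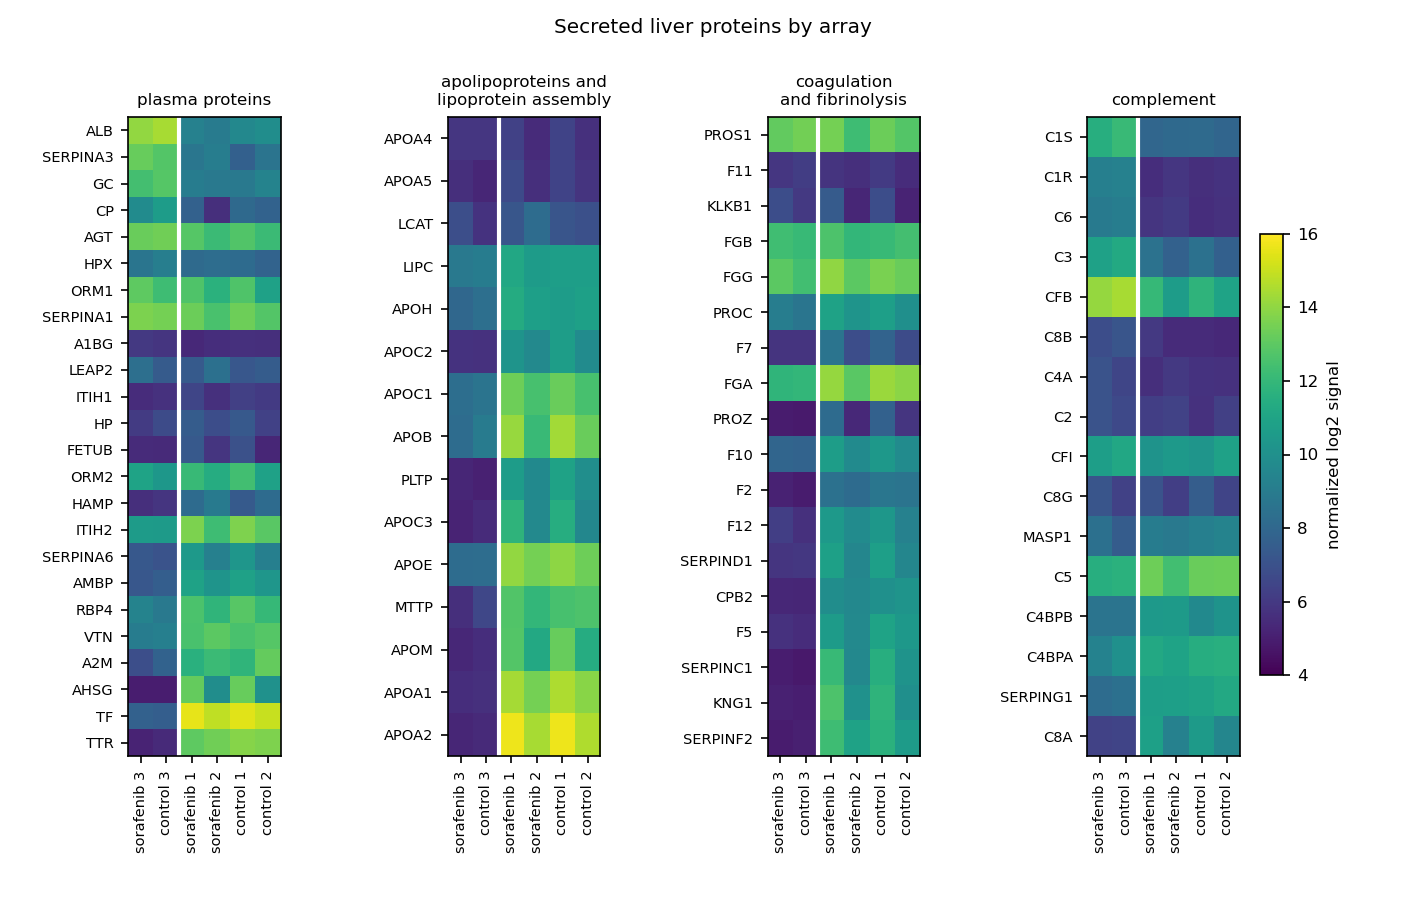
Rows are tested genes of 4 groups of secreted liver proteins, not all of them shown, and each column is 1 array, coloured by normalized log2 signal from 4 to 16, with rows ordered by the difference. The 2 columns of arrays numbered 3, left of the white line, are brighter than the rest for ALB, SERPINA3 and GC at the top and at the dark end of the scale for TTR, APOA2 and SERPINF2 at the bottom, while SERPINA1, FGB and PROS1 keep a similar colour across the row.

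Hepatocyte transcription factors were lower or little different. None of 22 tested members was higher and 6 were lower (median -0.88). The lower ones included the forkhead factors FOXA3, with 7.06 and 7.24 on arrays 3, against 11.15 ± 0.56 on arrays 1 and 2, and FOXA1, with 9.36 and 9.68 on arrays 3, against 12.60 ± 0.19 on arrays 1 and 2, and CEBPA and GATA4, 6.4-fold lower and 6.72-fold lower. ONECUT1 (HNF6) differed by -0.36, PROX1 by -0.13 and NR1H4, the bile acid receptor, by -1.20. The symbol HNF4A had low levels on all arrays, at 5.93 and 5.64 on arrays 3 and 6.31 ± 0.61 on arrays 1 and 2.

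Metabolic liver genes were mostly lower where they differed, apart from a set of conjugating and reducing enzymes. Among amino acid breakdown and urea cycle genes 0 of 19 tested members were higher and 7 lower. GLDC, the glycine cleavage decarboxylase, had levels of 5.05 on the sorafenib array and 5.27 on the control array numbered 3, against 12.44 and 12.32 on sorafenib arrays 1 and 2 and 12.47 and 12.25 on control arrays 1 and 2 and was undetected on arrays 3. ASS1, of the urea cycle, differed by 1.48 the other way. Of liver transporters, 0 of 15 tested members were higher and 8 lower, led by the citrate carrier SLC13A5 (at least 32.7-fold lower) and the anion carrier SLC22A9 (at least 16.3-fold lower). The amino acid and transporter lists had median levels of 5.64 and 5.54 on arrays 3, at background. A member can come out lower there but not higher, so that the lack of higher members is not a result about these lists. In drug metabolism, 7 of 26 tested members were higher and 6 lower. The glucuronosyltransferase symbol UGT1A6 gave 12.76 on the sorafenib array and 13.13 on the control array numbered 3, against 5.88 and 5.06 on sorafenib arrays 1 and 2 and 6.45 and 5.29 on control arrays 1 and 2, and UGT2B7 gave 11.71 and 12.02 on arrays 3, against 6.57 ± 0.60 on arrays 1 and 2. AOX1 (aldehyde oxidase) and EPHX1 (microsomal epoxide hydrolase) were 17.6-fold higher and 9.03-fold higher. The glucuronosyltransferase symbol UGT1A1, in contrast to UGT1A6 and UGT2B7, was counted as lower. The sulfotransferase SULT2A1 was at least 58.6-fold lower and the glutathione transferase GSTA2 17.5-fold lower. Of the aldo-keto reductases, AKR1C3 gave 14.18 and 14.15 on arrays 3, against 7.77 ± 0.92 on arrays 1 and 2, and AKR1C4 gave 12.60 and 12.60 on arrays 3, against 7.97 ± 0.60 on arrays 1 and 2. The NRF2 target NQO1 was 6.45-fold lower and GCLM, TXNRD1 and SRXN1, other targets of NRF2, differed by -0.80, -0.47 and -1.04. Symbols of near-identical families, here UGT1A, AKR1C and GSTA and below the metallothioneins, HLA genes, hair keratins and VCX genes, can share probes and are uncertain as single genes.

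The oncofetal and progenitor genes that mark many liver cancers leaned downward. Of the oncofetal list, 1 of 16 tested members was higher and 8 lower (median -2.14). GPC3, the surface proteoglycan glypican 3, had levels of 4.83 on the sorafenib array and 4.84 on the control array numbered 3, against 14.28 and 13.81 on sorafenib arrays 1 and 2 and 14.13 and 14.02 on control arrays 1 and 2, and was at least 273-fold lower. LIN28B, the RNA-binding protein that blocks let-7 maturation, gave 4.84 and 4.99 on arrays 3, against 12.79 ± 0.29 on arrays 1 and 2. PEG10, an imprinted gene derived from a retrotransposon, was at least 16.6-fold lower, SALL4, a fetal transcription factor, at least 4.85-fold lower, and PROM1, which encodes the stem cell marker CD133, 23.1-fold lower. SPP1, osteopontin, was the 1 member that was higher, at 12.27 and 12.63 on arrays 3, against 8.58 ± 0.74 on arrays 1 and 2. IGF2BP2, IGF2BP3 and CD24 differed by -0.30, 0.31 and 0.30. IGF2 and MDK differed by -2.93 and -3.13 but did not pass the detection filter, although MDK averaged 7.99 on arrays 3 and 11.12 on arrays 1 and 2. Both have p-values of several probes.

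Biliary and progenitor markers did not differ as a block. EPCAM, an epithelial adhesion molecule of liver progenitors, had levels of 5.67 on the sorafenib array and 5.18 on the control array numbered 3, against 11.92 and 11.98 on sorafenib arrays 1 and 2 and 11.76 and 11.74 on control arrays 1 and 2, and KRT19, a keratin of bile ducts, gave 5.47 and 5.67 on arrays 3, against 11.27 ± 0.67 on arrays 1 and 2. These 2 were lower, MUC1, an epithelial mucin, was 7.39-fold higher, and the other 9 of 12 tested members were not counted. KRT7, a defining biliary keratin, was detected on 1 array, the sorafenib array numbered 3, with 6.19 and 5.29 on arrays 3 and 5.02 ± 0.19 on arrays 1 and 2.

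Several keratins and mesenchymal genes were higher on the arrays numbered 3, and the epithelial cadherin was not counted in either direction. CDH1, E-cadherin, gave 12.89 on the sorafenib array and 12.28 on the control array numbered 3, against 13.18 and 12.04 on sorafenib arrays 1 and 2 and 11.86 and 11.56 on control arrays 1 and 2, a difference of 0.42, and CDH2, N-cadherin, differed by 0.44. Among epithelial junction genes and regulators 0 of 26 tested members were higher and 4 lower, the lower ones being CLDN3, CLDN6, TJP3 and OVOL2. The junction gene F11R differed by 2.21 the other way but did not pass the detection filter, although it averaged 10.97 on arrays 3 and 8.75 on arrays 1 and 2. Of 9 tested members of the keratin list 6 were higher and none lower, while KRT19, which stands in the biliary list, was lower. The tested keratins had a median level of 5.13 on arrays 1 and 2, at background, where a member can come out higher but not lower. The lack of lower members is therefore not a result about the list. KRT80 had levels of 13.17 on the sorafenib array and 12.22 on the control array numbered 3, against 5.03 and 5.13 on sorafenib arrays 1 and 2 and 5.17 and 5.19 on control arrays 1 and 2, and was at least 114-fold higher. KRT17, a keratin of stressed and basal epithelia, gave 11.85 and 11.70 on arrays 3, against 4.95 ± 0.056 on arrays 1 and 2. KRT20, a keratin of gut epithelium, gave 11.31 and 12.10 on arrays 3, against 5.32 ± 0.14 on arrays 1 and 2. The keratins of simple epithelia, KRT8 and KRT18, differed by 0.89 and 0.24.

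Of mesenchymal genes and regulators 19 of 38 tested members were higher and 3 lower (median 2.27). MSN, moesin, which ties actin to the plasma membrane, had levels of 14.33 on the sorafenib array and 14.72 on the control array numbered 3, against 6.39 and 6.03 on sorafenib arrays 1 and 2 and 6.37 and 5.92 on control arrays 1 and 2, and was 326-fold higher. TGFB2, a TGF-beta ligand, gave 11.73 and 12.24 on arrays 3, against 5.43 ± 0.18 on arrays 1 and 2. SNAI2, a repressor of epithelial genes, was detected on the arrays numbered 3 alone, at 12.14 and 11.09 on arrays 3, against 5.14 ± 0.034 on arrays 1 and 2. The receptor kinase AXL was 87-fold higher, the hyaluronan receptor CD44 63.8-fold higher, and the matrix proteins THBS1 and TNC 76.3-fold higher and 72.5-fold higher. Of the list's contractile genes, TAGLN was at least 31.8-fold higher, CNN1 34.7-fold higher and ACTA2 28.8-fold higher. VIM, the intermediate filament that marks mesenchymal cells, differed the other way. Its levels were 6.99 on the sorafenib array and 7.21 on the control array numbered 3, against 12.71 and 13.53 on sorafenib arrays 1 and 2 and 12.43 and 13.50 on control arrays 1 and 2, and it was 61.4-fold lower. TPM2, a contractile tropomyosin, and TWIST1, a mesenchymal transcription factor, were likewise lower, by 4.80 and 2.48 log2 units, and FN1, SPARC and ZEB1 differed by -0.25, -1.32 and 0.56.

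Matrix and adhesion genes leaned upward too. COL4A1, a chain of basement membrane collagen, had levels of 13.90 on the sorafenib array and 14.17 on the control array numbered 3, against 5.0 and 5.60 on sorafenib arrays 1 and 2 and 5.26 and 5.53 on control arrays 1 and 2, and was at least 286-fold higher. COL4A2, transcribed divergently from a shared promoter, gave 10.87 and 10.97 on arrays 3, against 5.45 ± 0.19 on arrays 1 and 2. Of basement membrane genes 4 of 14 tested members were higher and 0 lower, and the laminins LAMB1 and LAMC1 differed by 0.45 and -0.33. Among the other collagens and their enzymes 5 of 17 tested members were higher and 2 lower, with COL6A1 at least 44.8-fold higher, the proteoglycan LUM at least 35.4-fold higher and COL5A2 96.4-fold lower. ITGA3, a laminin-binding integrin, gave 11.31 and 11.62 on arrays 3, against 5.33 ± 0.048 on arrays 1 and 2, and 4 of 13 tested integrins were higher and none lower. Of matrix proteases and inhibitors 6 of 15 were higher and none lower. MMP7, matrilysin, an epithelial metalloprotease, had levels of 13.43 on the sorafenib array and 13.85 on the control array numbered 3, against 5.08 and 4.97 on sorafenib arrays 1 and 2 and 4.96 and 5.04 on control arrays 1 and 2. It was at least 218-fold higher, and TIMP2, a metalloprotease inhibitor, was at least 87.1-fold higher.

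Calcium-binding and membrane scaffold proteins held some of the largest differences in both directions. Of caveolae, annexin, S100 and galectin genes 11 of 23 tested members were higher and 3 lower. Within the annexins, which bind membranes in the presence of calcium, ANXA8 and ANXA1 were at least 65.7-fold higher and 95.3-fold higher, whereas ANXA5 had levels of 5.24 on the sorafenib array and 5.22 on the control array numbered 3, against 13.84 and 13.68 on sorafenib arrays 1 and 2 and 13.63 and 13.43 on control arrays 1 and 2, and was at least 205-fold lower. ANXA2 differed by 1.27. S100A3 was at least 26-fold higher and S100P, a small calcium-binding protein, 231-fold lower, with 6.60 and 5.01 on arrays 3, against 13.66 ± 0.32 on arrays 1 and 2. Paralogs of 1 family thus had differences of opposite sign.

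Of growth factors and cytokines 11 of 24 tested members were higher and 1 lower (median 1.69). CCL2, which attracts monocytes, had levels of 13.48 on the sorafenib array and 14.14 on the control array numbered 3, against 4.97 and 4.90 on sorafenib arrays 1 and 2 and 5.01 and 4.83 on control arrays 1 and 2, and was at least 245-fold higher. CXCL8 (interleukin 8, which attracts neutrophils, named IL8 on the array) gave 14.81 on the sorafenib array and 15.05 on the control array numbered 3, against 7.07 and 8.10 on sorafenib arrays 1 and 2 and 7.27 and 7.45 on control arrays 1 and 2. INHBB, a subunit of activin, was 26.2-fold higher. FGF19, a hormone that represses bile acid synthesis, was the 1 lower member, with 6.15 and 5.18 on arrays 3, against 10.11 ± 0.33 on arrays 1 and 2. The 250 bases before MMP7 (chr11:102530748-102530997, minus strand, GRCh38.p14) and CXCL8 (chr4:73740319-73740568, plus strand) are shown because both genes were among the 15 with the largest differences upward and both held an AP-1 motif. Capitals mark that motif (TGANTCA, either strand) and the TATA box.
MMP7: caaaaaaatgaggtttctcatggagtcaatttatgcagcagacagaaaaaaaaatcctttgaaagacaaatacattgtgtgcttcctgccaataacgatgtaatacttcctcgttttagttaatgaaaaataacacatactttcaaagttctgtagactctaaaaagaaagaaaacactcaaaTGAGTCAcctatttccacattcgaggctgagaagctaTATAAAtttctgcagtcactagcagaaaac
CXCL8: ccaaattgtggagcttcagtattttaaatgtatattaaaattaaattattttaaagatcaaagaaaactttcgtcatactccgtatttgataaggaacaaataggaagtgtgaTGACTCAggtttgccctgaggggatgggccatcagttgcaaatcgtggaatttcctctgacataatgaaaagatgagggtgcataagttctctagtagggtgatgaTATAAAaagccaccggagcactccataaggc
The AP-1 motif was found in 6.76% of 621 windows of higher genes, 3.81% of 656 of lower genes and 4.58% of 9658 of all tested genes. A TEAD motif (GGAATG) was found in 11.8%, 11.6% and 11%, and an HNF4-like motif (AAAGTCC) in 5.64%, 4.88% and 3.22%. The CpG ratio, observed over expected CpG pairs, had a median of 0.749 for higher, 0.751 for lower and 0.831 for all tested genes.

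Target genes of YAP and TEAD, the factors controlled by the Hippo pathway, had 7 of 19 tested members higher and none lower. CCN1 gave 14.14 and 13.70 on arrays 3, against 10.25 ± 1.60 on arrays 1 and 2, MYOF was 52.8-fold higher, and CCN2, the target most often used as a readout, differed by 1.63. Wnt pathway genes were mixed: 4 of 16 tested members were higher and 3 lower. The Wnt inhibitor DKK1 gave 12.73 and 13.49 on arrays 3, against 9.09 ± 0.80 on arrays 1 and 2, while DKK3, a relative of it, gave 6.11 and 5.77 on arrays 3, against 10.28 ± 0.49 on arrays 1 and 2, and AXIN2, a common readout of the pathway, differed by 0.17. Of receptor tyrosine kinases 4 of 15 tested members were higher and 2 lower, with EPHB2 and EPHB6 at least 14.6-fold higher and at least 8.17-fold higher, and MERTK and FGFR3 8.59-fold lower and 5.06-fold lower. EGFR, MET and EPHA2 differed by 1.33, 1.27 and -0.06.

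Interferon-induced and antigen presentation genes had 10 of 29 tested members higher and 2 lower (median 1.67). HLA-B, a class I antigen-presenting chain, had levels of 12.59 on the sorafenib array and 12.30 on the control array numbered 3, against 5.88 and 5.53 on sorafenib arrays 1 and 2 and 5.78 and 5.52 on control arrays 1 and 2. B2M, the shared light chain of class I molecules, differed by 1.74. The GTPases GBP1 and GBP2 were 21.4-fold higher and 9.22-fold higher, and TAP1, the peptide transporter, 5.01-fold higher. The antiviral GTPases MX1 and MX2, in contrast, were 5.5-fold lower and 13.9-fold lower, and ISG15 and IFI6 differed by -0.73 and -0.0048.

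Of HOXC and HOXD genes, which set position along the body, 7 of 12 tested members were lower and none higher. The tested members had a median level of 5.23 on arrays 3, at background, where a member can come out lower but not higher. The lack of higher members is therefore not a result about the list. HOXC6 gave 5.44 and 5.61 on arrays 3, against 10.29 ± 0.28 on arrays 1 and 2, HOXD1 gave 4.77 and 4.82 on arrays 3, against 9.38 ± 1.36 on arrays 1 and 2, and HOXC10, HOXC9, HOXC8, HOXC4 and HOXC6 formed a run of 5 neighbours among tested genes that were all lower. In HOXA and HOXB the counts were 1 lower of 8 tested, and HOXA5 differed by -0.22. HOXA9 differed by -3.87 but did not pass the detection filter, although it averaged 8.88 on arrays 1 and 2, against 5.01 on arrays 3. CDX2, an intestinal homeobox factor, was detected on all 4 arrays numbered 1 and 2 and on neither array numbered 3, with 5.02 and 4.96 on arrays 3, against 12.53 ± 0.49 on arrays 1 and 2. Of cancer-testis antigens, which are normally limited to germ cells, 3 of 13 tested members of the list were lower and none higher. With a median level of 5.41 on arrays 3, at background, the lack of higher members is again not a result about the list. Outside that list, the germ cell genes SPANXA1 and SPANXA2, near-identical copies whose signals may not be separate, were higher, by 2.98 and 3.10. MAGEA8 had levels of 5.09 on the sorafenib array and 5.19 on the control array numbered 3, against 12.08 and 11.92 on sorafenib arrays 1 and 2 and 12.33 and 12.12 on control arrays 1 and 2. The symbols VCX and VCX-C, of a family of X-linked germ cell genes, were at least 112-fold lower and at least 323-fold lower, the second matching the current symbol VCX3B.

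Within metabolism, paralogs of 1 enzyme differed in opposite directions or by unequal amounts. Among glycolysis genes 2 of 19 tested members were higher and 4 lower. PFKP, the platelet-type phosphofructokinase, had levels of 12.35 on the sorafenib array and 12.32 on the control array numbered 3, against 4.91 and 4.98 on sorafenib arrays 1 and 2 and 4.98 and 4.93 on control arrays 1 and 2, and PFKM, the muscle type, gave 9.10 and 9.26 on arrays 3, against 11.34 ± 0.43 on arrays 1 and 2. LDHB, the heart-type lactate dehydrogenase subunit, gave 4.95 and 4.93 on arrays 3, against 11.58 ± 0.32 on arrays 1 and 2, whereas LDHA differed by 1.23. ALDOC was at least 38.6-fold lower and ALDOA differed by 0.40. HKDC1, a hexokinase, was 195-fold higher. The metallothionein symbols, metal-binding proteins, also divided, 2 of 8 tested members being higher and 4 lower, with MT1E, MT1G, MT1H and MT1M lower and MT1X and MT2A higher, by 2.18 and 2.55. Of fatty acid genes 2 of 21 tested members were higher and 2 lower. Cholesterol synthesis genes had 1 lower of 23 (EBP, by 2.30) and none higher, and the median was 0.00013.

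DNA replication genes leaned downward. Of G1/S and DNA replication genes 0 of 27 tested members were higher and 14 lower, with a median of -2.22, or -2.0 within sorafenib and -2.44 within control arrays. Their median level was 7.89 on sorafenib array 3 and 7.75 on control array 3, against 9.80 and 10.25 on sorafenib arrays 1 and 2 and 10.81 and 10.70 on control arrays 1 and 2. CDT1, which loads the replicative helicase, gave 7.91 and 6.79 on arrays 3, against 11.44 ± 0.096 on arrays 1 and 2, MCM2, a helicase subunit, 8.26 and 8.28 on arrays 3, against 11.86 ± 0.35 on arrays 1 and 2, and RRM2, a ribonucleotide reductase subunit, 5.48 and 5.73 on arrays 3, against 9.22 ± 0.77 on arrays 1 and 2. MCM3, RRM1 and TK1 differed by -1.62, -0.70 and -1.29, in the same direction but under the limit. Mitosis genes had fewer counted members: of G2/M genes 0 of 29 tested members were higher and 4 lower, and the median was -0.098 within sorafenib and -1.70 within control arrays. CDKN2B, an inhibitor of CDK4 and CDK6, was 16.5-fold higher, and its neighbour MTAP differed by -0.086. CDKN1A, the p21 inhibitor, differed by 4.0 but did not pass the detection filter, although it averaged 11.72 on arrays 3, and its p-values too are of several probes. CCND1, cyclin D1, was 5.07-fold higher.

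Genes that every cell uses showed no such difference. None of 17 tested reference genes, 41 ribosomal protein genes or 32 respiratory chain genes was counted in either direction, and the medians were 0.20 (-0.023 with median scaling, which shifted all tested symbols by -0.12), -0.21 and -0.39. GAPDH gave 13.99 on the sorafenib array and 14.13 on the control array numbered 3, against 13.94 and 13.86 on sorafenib arrays 1 and 2 and 14.05 and 13.66 on control arrays 1 and 2. ACTB differed by 0.74, EEF1A1 by 0.20 and HPRT1 by 0.13, and the widest tested members of that list were PGK1 at 1.75 and GUSB at -1.30.

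**Figure D4:**
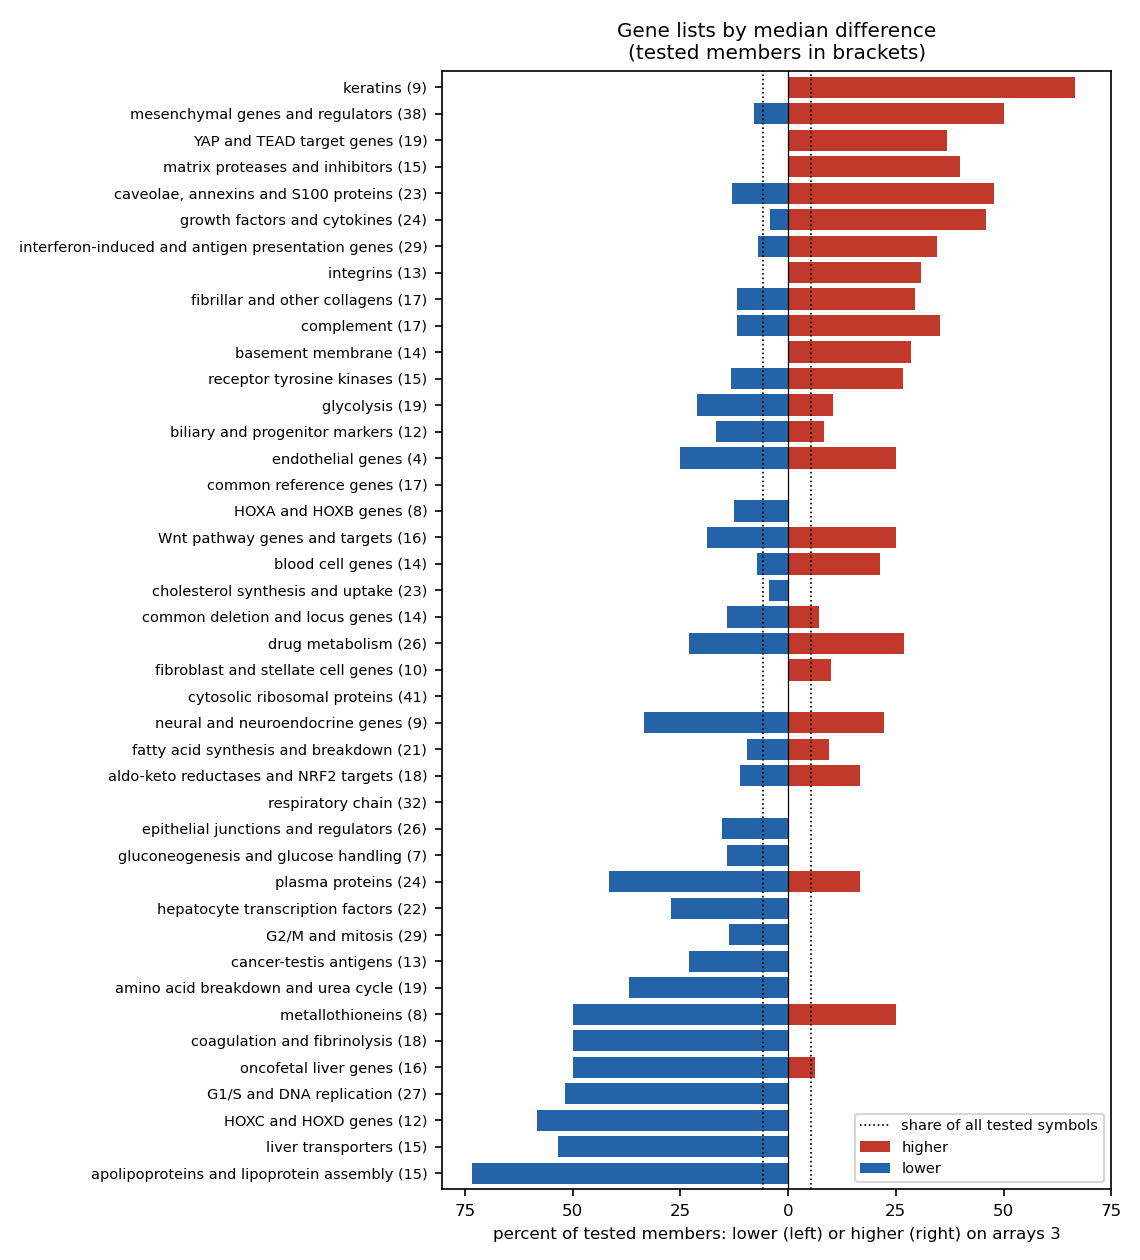
Each row is a gene list, ordered by its median difference, and the bars give the percent of its tested members counted as higher (red, right) or lower (blue, left) on the arrays numbered 3, with the number tested in brackets and the shares over all tested symbols as dotted lines (5.38% and 5.86%). Apolipoproteins, liver transporters, HOXC and HOXD genes and DNA replication lie at the bottom, keratins and mesenchymal genes at the top, and reference, ribosomal and respiratory chain genes have no bar.

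Markers of other cell types were mostly near background on both groups of arrays. RAC2, a small GTPase best known in blood cells, had the largest difference among the higher symbols, with 14.51 on the sorafenib array and 14.02 on the control array numbered 3, against 5.32 and 5.04 on sorafenib arrays 1 and 2 and 5.54 and 5.15 on control arrays 1 and 2, and was at least 336-fold higher. Most of its list did not follow it: of 30 blood cell genes 14 passed the detection filter, of which ARHGDIB, CD14 and RAC2 were higher and 1 other was lower. With RAC2 itself, the higher members were 21.4% of those tested, against 5.38% of all tested symbols. The defining pan-leukocyte gene PTPRC (CD45) was at 5.18 and 5.08 on arrays 3 and 5.05 ± 0.03 on arrays 1 and 2. The leukocyte genes CD53, SPI1 and TYROBP were undetected on all arrays, with 5.09 and 5.15 on arrays 3 for CD53, 5.37 and 5.20 for SPI1 and 5.35 and 5.32 for TYROBP. Of 20 endothelial genes 4 passed the filter, PECAM1 being lower and SOX18 higher, and the defining genes CDH5, at 4.84 and 4.86 on arrays 3, and VWF, at 4.91 and 5.10, were undetected on all arrays. Of fibroblast and stellate cell genes 1 of 10 tested members was higher and 0 lower. The higher one was S1PR3, a receptor of sphingosine-1-phosphate, and PDGFRA and PDGFRB differed by 0.021 and -0.41. In the neural list 2 of 9 tested members were higher and 3 lower. UCHL1, a deubiquitinating enzyme of neurons, had levels of 6.07 on the sorafenib array and 5.26 on the control array numbered 3, against 13.37 and 13.74 on sorafenib arrays 1 and 2 and 13.76 and 13.92 on control arrays 1 and 2, while the neuroendocrine markers CHGA and SYP were near background throughout. No list of another cell type was high as a whole on the arrays numbered 3.

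**Figure D5:**
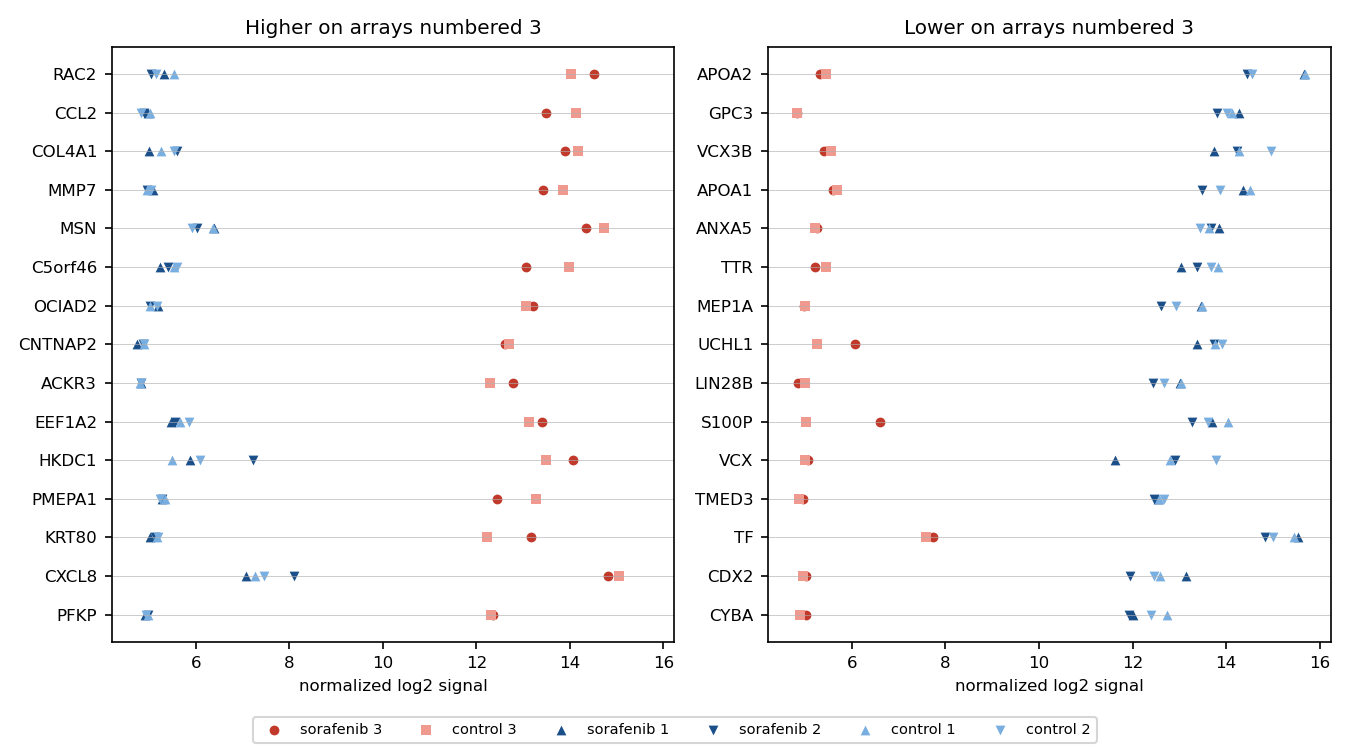
Each row is 1 of the 15 genes with the largest difference in each direction, and each symbol is 1 array, placed by its normalized log2 signal, with the sorafenib and control arrays numbered 3 in red shades and the 4 others in blue shades. In every row the 2 red symbols lie apart from the 4 blue ones, with a smallest gap of 6.27 log2 units.

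The other genes among the 15 with the largest differences in each direction belonged to none of the groups above. Higher were C5orf46, OCIAD2, CNTNAP2 (a neurexin-family adhesion protein), ACKR3 (a scavenging receptor of CXCL12, named CXCR7 on the array), EEF1A2 (a tissue-restricted form of elongation factor 1 alpha) and PMEPA1 (a TGF-beta target that dampens SMAD signalling). ACKR3 gave 12.78 and 12.29 on arrays 3, against 4.82 ± 0.013 on arrays 1 and 2, and EEF1A2 gave 13.41 and 13.12 on arrays 3, against 5.64 ± 0.17 on arrays 1 and 2. Lower were MEP1A (a metalloprotease of kidney and gut), TMED3 (a cargo receptor of the secretory pathway) and CYBA (a subunit of the NADPH oxidases). MEP1A gave 4.98 and 4.99 on arrays 3, against 13.12 ± 0.43 on arrays 1 and 2, and CYBA gave 5.01 and 4.90 on arrays 3, against 12.26 ± 0.37 on arrays 1 and 2. In each of these the levels on the side that was low lay at the background of its arrays.

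Just inside and just outside the 4-fold limit the differences graded into one another, with no gap: at 2-fold the counts were 2334 higher and 2633 lower. TOM1L1 (2.0011) and OGG1 (-2.00325) lay just inside, and PSMB9 (1.99996) and XPO7 (-1.99971) just outside. Of the 989 lower symbols, 512 were detected on neither array numbered 3. Of 548 symbols that passed the filter through the arrays numbered 3 alone, 269 were counted among the 907. The 420 of these 548 with p-values of a single probe had to lie higher there. A further 82 symbols were 4-fold higher and 53 were 4-fold lower without passing the filter, among them MAGED1 at 6.78, AKR1C2 at 5.19 and MTHFD2 at -6.45, named after their values were seen.

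Some higher and some lower genes were neighbours. In the order of tested protein-coding genes along the chromosomes, 174 runs of 2 to 5 adjacent genes were counted in the same direction, 72 of them higher and 102 lower, and how many an arbitrary order would give was not tested. Besides the HOXC run, the lower runs held APOE, APOC1 and APOC2, and the higher ones CXCL8, CXCL6 and CXCL1, the GTPases GBP3, GBP1 and GBP2, the keratins KRT80, KRT86 and KRT81, and the pregnancy-specific glycoproteins PSG2, PSG5, PSG4 and PSG9. Members of such families resemble each other in sequence, and their symbols may share probes.

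The arrays numbered 2 and 1 also differed, to a smaller extent. Of 16870 symbols, 258 (1.53%) were at least 4-fold higher on both arrays 2 than on both arrays 1 and 37 (0.219%) were lower. The liver protein AHSG was among the lower ones, with levels of 9.89 and 10.05 on arrays 2, against 13.17 and 13.19 on arrays 1 (sorafenib and control), and both arrays numbered 3 lay at 4.96 and 4.96. GHR, the growth hormone receptor, was detected on the arrays numbered 1 alone, at 8.74 and 8.43. LGALS3, galectin 3, differed in the opposite direction, with 12.37 on the sorafenib array and 11.92 on the control array numbered 3, against 5.59 and 9.71 on sorafenib arrays 1 and 2 and 5.59 and 9.01 on control arrays 1 and 2. Of the 907 symbols higher on arrays 3, 40 were also higher on arrays 2 than on arrays 1, and of the 989 lower ones 12 were also lower there, and the other counted symbols did not differ so between arrays 2 and 1 in that direction.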

How the data were processed

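The 6 Illumina BeadChip arrays were analysed together, 3 per treatment. The authors deposited signal intensities that the file headers call non-normalized, with a detection p-value per symbol and array, in 1 table per treatment. How probes of a symbol were combined is not stated. The authors' deposited table of log2 values was not used. Background was estimated by limma's neqc method from 27247 symbols with detection p-values in steps of 1/770 (tolerance 0.001), as single probes give, then corrected with normexp (limma 3.58.1 in R 4.3.3) with an offset of 16, and the arrays were quantile-normalized on a log2 scale. Estimates came from a linear model with treatment and number 3 as terms, with no test. Symbols were kept when detected (p under 0.05) on at least 2 arrays, since 2 arrays carry the number 3. The script was tested on simulated data with known changes. Of 34690 symbols, 17761 are RefSeq symbols in use, 3305 older symbols of a single gene, and 13624 without a match keep the file's name. Where several rows named a gene, the row with the highest mean was taken. Promoter sequences and windows are RefSeq's. Named genes were the 15 with the largest difference in each direction among those counted, up to 6 counted members per list, the cell type markers and the reference genes. Other genes named, mostly members of the lists that were not counted, were chosen after their values were seen. Some genes are not reported here. The members and lists were chosen with earlier results of these data known. The number of arrays limits the precision. Figures were drawn with matplotlib 3.10.9.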

Additional observations from a re-analysis of the deposited data

Results flagged for a closer look

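SOX9, a transcription factor of biliary and progenitor cells, differed between arrays 3 and arrays 1 and 2 in opposite directions in the 2 treatments, by 1.57 log2 units between them. Its level was 12.25 on the sorafenib array and 11.54 on the control array numbered 3, against 11.77 and 10.76 on sorafenib arrays 1 and 2 and 12.39 and 11.87 on control arrays 1 and 2. NEFH, a neurofilament chain, did the same by 1.14 near background, with 6.51 on the sorafenib array and 5.61 on the control array numbered 3, against 5.53 and 5.51 on sorafenib arrays 1 and 2 and 5.87 and 5.63 on control arrays 1 and 2. For 29 G2/M genes the median level was 10.52 on sorafenib array 3 and 9.28 on control array 3, against 10.08 and 10.46 on sorafenib arrays 1 and 2 and 10.07 and 10.72 on control arrays 1 and 2, and the differences of the treatments stood 1.60 apart, with the array numbered 3 lowest among control arrays and highest among sorafenib arrays. The 4 tested endothelial genes and the 14 genes of common deletions and loci showed the same kind of opposite order in their median levels, with the differences 0.53 and -0.13 apart. None of these differences between treatments was tested.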

How the results depend on the processing

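No paired analysis was possible because the number that could pair the samples is itself what is compared. The counts of 907 higher and 989 lower symbols, and of 295 between arrays 2 and 1 in either direction, depended on how background was treated. They were 496, 488 and 109 without background correction, 309, 241 and 96 with background estimated from all symbols, and 190 for arrays 2 against 1 with an offset of 50. Among symbols detected on all 6 arrays they were 360, 357 and 194, since fewer symbols were tested and those below background on 1 side were left out. At 2-fold they were 2334, 2633 and 1699, and at 8-fold 421, 429 and 48. Leaving out 1 array at a time gave 911 to 985 higher and 945 to 1044 lower symbols. Median scaling, no detection filter, a filter of at least 3 arrays, 1 treatment alone, and leaving out both arrays 1 or both arrays 2 kept the counts of higher and lower symbols within 1.5 times. The last 3 of the filters and omissions named (at least 3 arrays, both arrays 1, both arrays 2) were chosen after the data were seen. Of 726 medians of gene lists under these settings, 694 kept their sign; 531 moved by less than the list's SD between arrays 1 and 2 of a treatment, 182 by at least that SD, and 13 turned from a median larger than that SD. Medians near 0 turned: blood cell genes to -0.011 without a filter, -0.13 among symbols detected on all 6 arrays, -0.052 to 0.19 with 1 array left out (-0.0030 without control array 2) and -0.052 for sorafenib arrays alone; receptor tyrosine kinases to -0.023 without a filter; fibroblast and stellate cell genes to 0.011 without sorafenib array 1 (from -0.30 with 1 array left out) and 0.047 without both arrays 1; and common reference genes to -0.023 with median scaling. The median of complement turned to -0.090 with a filter of 3 arrays and -1.30 with all 6, of oncofetal liver genes to 0.30 and of metallothioneins to 1.48 with all 6; these filters leave out members that are below background on 1 side.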
